A study of Mus musculus with 15 samples.

Results

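The Hox genes of newborn mouse epidermis and tongue were described across 15 RNA-seq libraries. Members were the genes named Hox followed by a cluster letter from a to d and a number, with Hoxc13 left out by the rule. This gave 27 of the 23420 mouse genes counted: 10 of cluster A, 8 of cluster B, 5 of cluster C and 4 of cluster D. The number is the paralog number, which runs from 1 at the 3′ end of a cluster to 13 at the 5′ end. Hox genes that are not among those counted, such as Hoxc10 and Hoxd3, could not be judged. No measured value entered the choice.

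Hox genes encode homeodomain transcription factors that lie in 4 clusters and record the position of a cell along the body axis. Genes at the 3′ end are expressed up to the hindbrain, and genes closer to the 5′ end only in progressively more posterior tissue, so that the set a cell keeps is often called a positional code. Skin cells are known to keep such a code after birth. The tongue forms at the floor of the mouth from pharyngeal arch tissue, its muscle comes from occipital somites, and the front of the face and jaw arises from neural crest without Hox expression. TALE proteins such as Pbx and Meis bind DNA together with Hox proteins, and Polycomb proteins keep the clusters silent where they are off.

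All tissue came from mice at postnatal day 1. The labels give the genotype as wild type (WT) or as a knockout (KO) of 7 genes, Tmprss11a to Tmprss11g, which encode membrane-bound serine proteases of the HAT/DESC family and were targeted by multiplexed gene editing. The strain field names the targeted genes in both genotypes, and the labels give no line, clone or background strain. Epidermis was peeled from dermis after warming in EDTA, from skin whose body site the labels do not give, and the labels name no part of the tongue. There were 3 libraries of epidermis WT, 4 of epidermis KO, 4 of tongue WT and 4 of tongue KO. Read as animals, the A-numbers in the labels gave 9 animals, of which 6 supplied both tissues, and they fall in 3 ranges called A32x, A34x and A38x here.

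Counted reads ran from 10117819 to 17819195 per library. Reads on the 27 members numbered 678 to 1947 in an epidermis library and 71 to 183 in a tongue library. Of the targeted genes 6 were analysed, and 2 of them, Tmprss11a and Tmprss11b, were lower in tongue KO than in tongue WT, at 81.6 against 235 and 13.8 against 56.8 mean CPM (counts scaled to a common library size after edgeR's TMM, a trimmed mean scaling). Reads of all 6 were still found in KO, and in epidermis none of the 6 passed, although Tmprss11b was at 0.332 to 1.15 CPM in KO and 3.54 to 3.69 in WT. The summed level of 6 epidermal keratinocyte markers was 31400 to 58100 CPM in epidermis and 506 to 785 in tongue, and that of 6 tongue epithelium markers was 305 to 1270 and 8040 to 13100. Epidermis WT 1 stood apart, with 44.6% of its reads on mitochondrial ribosomal RNA against 20.1% to 23.8% in the other epidermis libraries.

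Paralog group 8 held a contrast between the tissues. Hoxb8 (cluster B, chromosome 11:96281905-96285315, plus strand) was read in every epidermis library and had no read in any of the 8 tongue libraries. Hoxd8 (cluster D, chromosome 2:74704615-74707933, plus strand) was among the highest members in both tissues. The 250 bases before the start of each gene are shown for that reason, from RefSeq on GRCm38.p6, read 5′ to 3′ on the gene's strand. Capitals mark matches to the 4 motifs searched on both strands, which were TGATTNAT (Pbx with Hox), TGACAG (Meis), TTTATG (Cdx and posterior Hox) and AGGTCA (a nuclear receptor site of the kind retinoic acid receptors bind).
Hoxb8, chr11:96281655-96281904: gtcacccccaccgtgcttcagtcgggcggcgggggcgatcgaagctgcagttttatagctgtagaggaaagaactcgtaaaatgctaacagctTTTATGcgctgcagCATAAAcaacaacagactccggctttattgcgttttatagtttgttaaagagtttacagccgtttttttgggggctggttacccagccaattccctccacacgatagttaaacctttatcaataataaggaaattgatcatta
Hoxd8, chr2:74704365-74704614: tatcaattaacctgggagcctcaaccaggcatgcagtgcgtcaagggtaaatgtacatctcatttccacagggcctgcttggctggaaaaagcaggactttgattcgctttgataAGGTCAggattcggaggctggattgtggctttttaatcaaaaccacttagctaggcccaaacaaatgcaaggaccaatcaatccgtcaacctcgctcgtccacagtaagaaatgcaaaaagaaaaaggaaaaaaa
Both windows had the same GC content, 44.4%. The Hoxb8 window held 2 matches to TTTATG, one on each strand, a motif found in 10.8% of 32851 windows of this length. The Hoxd8 window held 1 match to AGGTCA, found in 14% of all windows. Neither held TGATTNAT or TGACAG, which were in 2.82% (TGATTNAT) and 15.9% (TGACAG) of windows. Of the 15 members with a window in the table, 4 held TTTATG (Hoxa7, Hoxb8, Hoxd4 and Hoxd11) and 4 held AGGTCA (Hoxb4, Hoxc4, Hoxd4 and Hoxd8). Motifs and genes shown were chosen after the values were seen, and a match is a run of letters that was not tested as a binding site.

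Cluster B also carries the microRNA gene Mir196a-1, next to Hoxb9 on its 5′ side, and miR-196a is known to cut Hoxb8 messenger RNA. The mature microRNA and its best match in the longest Hoxb8 transcript are shown because both genes were read in epidermis. Capitals mark the seed, bases 2 to 8, and the 7 bases opposite to it.
miR-196a-5p, chr11:96265187-96265208: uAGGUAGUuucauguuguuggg
Hoxb8 site, bases 2208 to 2229 of the transcript: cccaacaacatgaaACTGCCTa
Over the 22 bases the site made 21 Watson-Crick pairs and 1 G:U pair, the latter within the seed. The Mir196a-1 entry was at 0.618 ± 0.0913 CPM in epidermis WT (SD, n = 3), 0.311 ± 0.128 in epidermis KO (n = 4), and 0.0202 ± 0.0404 and 0.0498 ± 0.0996 in tongue WT and KO. These libraries read long RNA, so the values describe the primary transcript and not the mature microRNA.

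**Figure D1:**
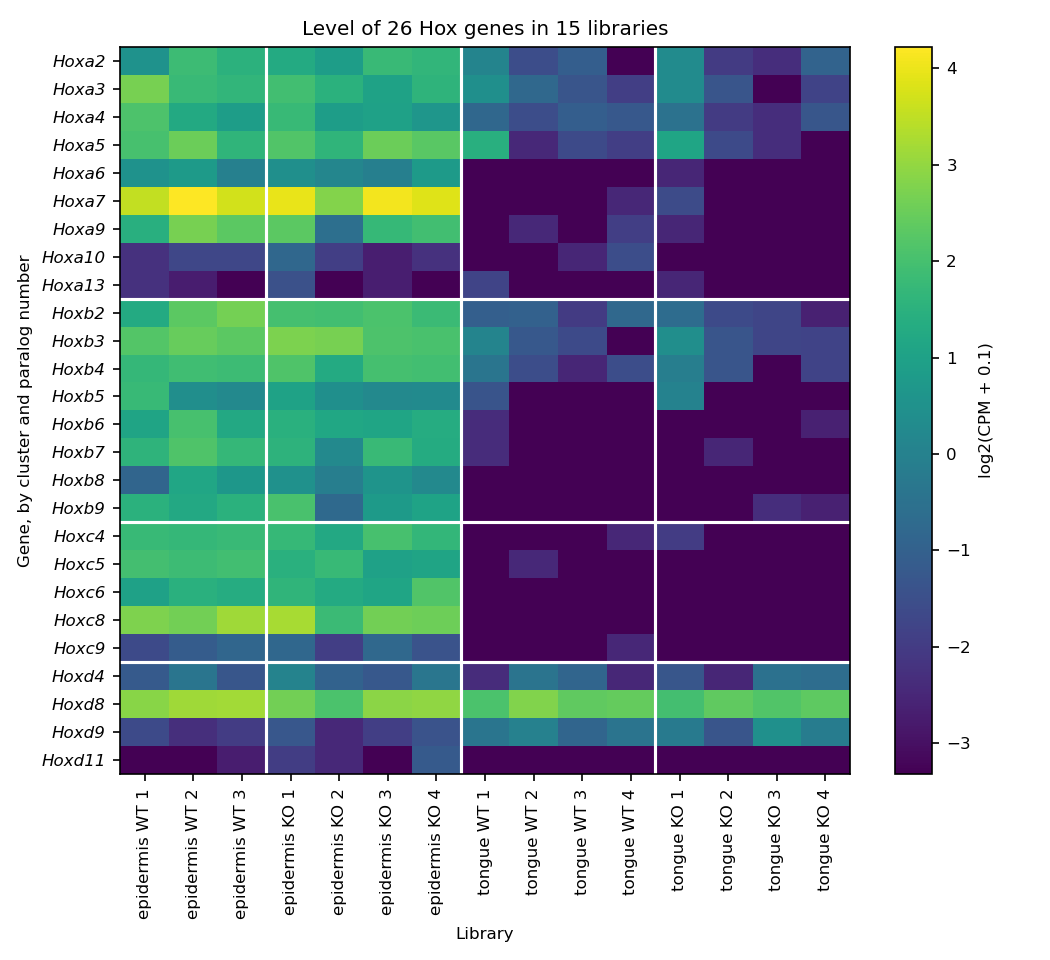
Level of 26 of the Hox genes (rows, by cluster and paralog number) in each of the 15 libraries (columns, by group) as log2(CPM + 0.1), with white lines between clusters and groups. Clusters A to C were read in all epidermis libraries and little in tongue, while Hoxd8 was read throughout, and the tongue libraries WT 1 and KO 1 carry more of Hoxa2 to Hoxa5 and Hoxb3 to Hoxb5 than the other 6.

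Epidermis carried a broad set of Hox genes up to paralog 9. A member was called detected in a group where each library held at least 10 reads, and near 0 where each held at most 3. In epidermis WT 20 of the 27 members were detected, and in epidermis KO 19. In epidermis WT the detected stretch reached Hoxa9 in cluster A, Hoxb9 in cluster B and Hoxc8 in cluster C, with Hoxb8 falling short through the 4 reads of WT 1. In epidermis KO it reached Hoxa7, Hoxb8 and Hoxc8, and Hoxa9 and Hoxb9 fell short through the 7 and 6 reads of KO 2. The only members above paralog 9 were at the edge of reading: Hoxa10 had 1 to 9 reads in an epidermis library, Hoxa13 0 to 5 and Hoxd11 0 to 6. Other genes above paralog 9 are not members, so the limit at paralog 9 rests on an incomplete set. Of cluster D only Hoxd8 was detected.

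In tongue 1 member, Hoxd8, was detected in either genotype. Near 0 were 17 members in tongue WT and 16 in tongue KO, and the 16 had at most 3 reads in all 8 tongue libraries. Hoxb8, Hoxc6, Hoxc8 and Hoxd11 had no read in any of them. In between were Hoxd9 and Hoxd4 and the 3′ members Hoxa2 to Hoxa5 and Hoxb2 to Hoxb4, joined by Hoxb5 in tongue KO. Summed over the 27 members the level was 80.2, 99.9 and 88.3 CPM in epidermis WT, 94.1, 56.3, 81.3 and 80.8 in epidermis KO, 12.9, 10.6, 7.84 and 8.08 in tongue WT, and 14.1, 7.39, 7.07 and 7.87 in tongue KO, in the order of the replicates. Every epidermis library was above every tongue library. In such bulk samples fewer cells of a type and less RNA per cell cannot be told apart.

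Per kb of exon, which allows levels to be compared between genes, Hoxa7 was highest in epidermis. It reached 4.99 ± 1.30 CPM per kb in epidermis WT (SD, n = 3) and 4.66 ± 1.53 in epidermis KO (n = 4). In epidermis WT Hoxd8 (3.05 ± 0.331) and Hoxc8 (2.53 ± 0.496) followed, and then Hoxb7 (2.25 ± 0.477) and Hoxa5 (2.24 ± 0.735), which lay within their spread. In epidermis KO Hoxa5 (2.38 ± 0.602), Hoxd8 (2.30 ± 0.585) and Hoxc8 (2.17 ± 0.853) followed, again within their spread. Cluster A made up 44.8 ± 3.90% of the summed CPM per kb of all members in epidermis WT, cluster B 27.8 ± 1.05%, cluster C 17.9 ± 2.93% and cluster D 9.51 ± 0.788%. The shares in epidermis KO were 46.1 ± 1.70%, 27 ± 2.01%, 18.3 ± 1.14% and 8.64 ± 1.18%.

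**Figure D2:**
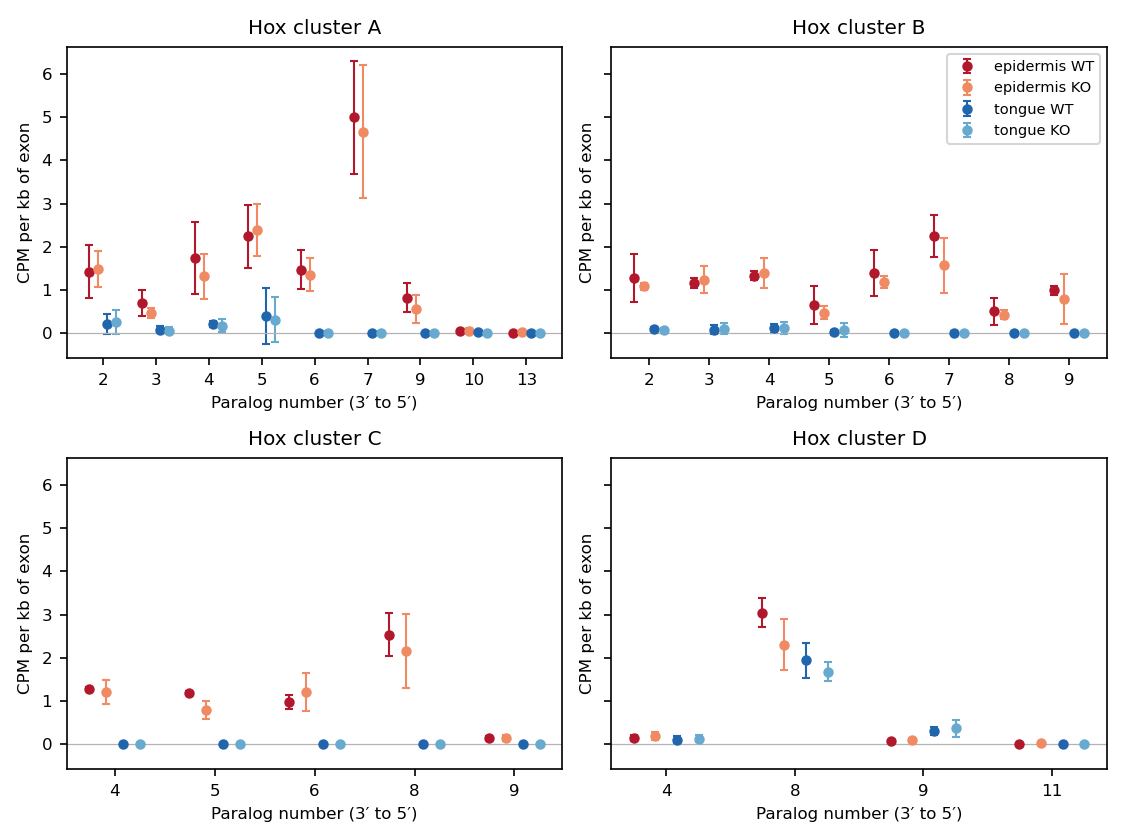
Mean CPM per kb of exon (points) with SD (bars) for 26 of the members by cluster and paralog number, in epidermis WT (n = 3) and epidermis KO, tongue WT and tongue KO (n = 4 each). Mean levels in epidermis WT were highest at paralog 7 in clusters A and B and at paralog 8 in clusters C and D, and in tongue WT Hoxd8 stood at 1.94.

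The wild-type tissues were compared with edgeR's quasi-likelihood test over 16577 genes. Of the 27 members 20 passed the filter on low counts, and all 20 were higher in epidermis at an adjusted p under 0.05, where 32% of all genes tested were called higher in epidermis. The filter bears on this count: apart from Hoxd8 the members that passed did so through their epidermis reads, so they had to differ. Over all 27 members, tested or not, 22 were higher in each epidermis WT library than in any tongue WT library, and 1, Hoxd9, was lower in each. Non-overlap in the first direction was found for 31.8% of all genes tested and in the second for 33.9%. In the KO tissues 19 members passed the filter and 18 were called higher in epidermis, where 32.7% of 16398 genes were, and 22 did not overlap in that direction (28.6% of genes). Across both genotypes 21 members were higher in each of the 7 epidermis libraries than in any of the 8 tongue libraries.

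Members from paralog 6 to paralog 9 of clusters A to C were nearly unread in tongue. Hoxa7, which patterns the thoracic axis and was the highest of them per kb in epidermis, had 102, 362 and 253 reads in epidermis WT, or 11.5, 18.6 and 13 CPM, and 0, 0, 0 and 1 in tongue WT. In epidermis KO it had 15.5, 6.97, 16.8 and 14.3 CPM, and in tongue KO 3, 0, 0 and 0 reads. No epidermis library came near any tongue library. Pooling the reads of a group, the ratio was 728 in WT, with an exact 95% interval of 130 to 28800, and 247 in KO, with one of 84.1 to 1200. These intervals cover counting error only.

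Hoxc8, known for its part in patterning the thoracic region, had 6.75, 6.0 and 8.72 CPM in epidermis WT and 9.28, 3.40, 6.03 and 5.83 in epidermis KO, and no read in tongue. Its level was at least 117-fold higher in epidermis WT and at least 113-fold in KO, taking 3 reads over the tongue group as the floor. By the same floor Hoxc6 was at least 39.6-fold higher in WT and 52.1-fold in KO, and Hoxb8 at least 25-fold and 20.8-fold. Hoxb8 did not pass the filter in WT and was called with edgeR when no filter was used (adjusted p = 0.00321) and with DESeq2 (adjusted p = 8.33e-05). Adjusted p-values from edgeR were 1.90e-05 for Hoxc8 in WT and 6.72e-06 in KO.

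At the 5′ limit of the detected stretch in epidermis WT stood Hoxa9 and Hoxb9. Hoxa9 had 2.59, 6.26 and 4.93 CPM in epidermis WT and 3 reads in tongue WT, a pooled ratio of 81.5 (95% interval 27.6 to 398, edgeR adjusted p = 3.78e-05). In epidermis KO it had 4.88, 0.581, 3.23 and 3.76 CPM. Hoxb9 had 2.70, 2.26 and 2.72 CPM in epidermis WT against no read in tongue WT, at least 40.9-fold higher, and 4.04, 0.498, 1.62 and 1.96 in epidermis KO. Neither passed the filter in the KO comparison, because the 7 and 6 reads of epidermis KO 2 left too few libraries above it. Without a filter both were called there (edgeR adjusted p = 6.21e-05 and 1.89e-04).

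At the 3′ limit of cluster C, Hoxc4 had 3.26, 3.18 and 3.39 CPM in epidermis WT against 1 read in 1 of 4 tongue WT libraries (pooled ratio 159, 95% interval 28.2 to 6330, edgeR adjusted p = 1.03e-05). Hoxb2, which acts in the hindbrain with Hoxa2, differed less, at 2.36, 4.87 and 6.21 CPM in epidermis WT against 0.383, 0.404, 0.149 and 0.485 in tongue WT (log2 change 3.67, SE 0.45, edgeR adjusted p = 9.45e-05). Reads were thus counted for Hoxb2 in all tongue WT libraries, and the groups did not overlap. The antisense gene Hoxb3os covers 27.3% of the exon bases of Hoxb2. The libraries were not stated to mark strand, so reads of the 2 genes cannot be told apart there.

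The remaining members of paralogs 2 to 5 in clusters A and B had pooled ratios of epidermis WT to tongue WT between 6.27 (Hoxa5) and 25.0 (Hoxb5), and those of KO ran from 5.72 (Hoxa2) to 11.0 (Hoxb3). In each genotype 1 tongue library moved these ratios. Without tongue WT 1, which held 27 of the 33 Hoxa5 reads and all 3 Hoxb5 reads of tongue WT, the ratio ran from 7.77 (Hoxa4) to 27.5 (Hoxb3), was 27.1 for Hoxa5 and was at least 19.6 for Hoxb5. Without tongue KO 1, which held all 12 Hoxb5 reads of tongue KO, it ran from 10.7 (Hoxa4) to 45.7 (Hoxa5) and was at least 18 for Hoxb5. Hoxa6, Hoxb6 and Hoxb7 by contrast had at most 1 read in any tongue library. The ratio for Hoxb6 was 141 in WT (95% interval 24.9 to 5610) and that for Hoxb7 was 175 (30.9 to 6930). Hoxa6, with no read in tongue WT, was at least 20.6-fold higher in epidermis WT.

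Cluster D made up 66.1 ± 20.6% of the summed CPM per kb of all members in tongue WT (SD, n = 4) and 68.7 ± 24.2% in tongue KO, of which Hoxd8 was 54.6 ± 17.2% and 53 ± 19.1%. Hoxd8, which acts in the trunk and in limb development, had 7.31, 8.77 and 8.98 CPM in epidermis WT, 6.08, 4.15, 7.38 and 7.68 in epidermis KO, 4.12, 6.79, 5.08 and 5.33 in tongue WT, and 3.84, 5.15, 4.38 and 5.04 in tongue KO. The WT groups did not overlap, while the KO groups did, through the low value of epidermis KO 2. Its log2 change was 0.67 in WT (SE 0.22, 95% interval 0.17 to 1.17, edgeR adjusted p = 0.0236) and 0.50 in KO (SE 0.25, interval -0.04 to 1.04, adjusted p = 0.0983). The call in WT was lost without a filter (edgeR adjusted p = 0.0526) and without any 1 of the libraries epidermis WT 2, epidermis WT 3, tongue WT 1, tongue WT 3 or tongue WT 4 (adjusted p = 0.0567 to 0.0754). Without epidermis KO 2 the KO change was 0.60 (SE 0.21, edgeR adjusted p = 0.0302). The difference between the changes of the 2 genotypes was -0.19 (SE 0.32, interval -0.87 to 0.49) and was not called.

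Hoxd9, the 5′ neighbour of Hoxd8 at chromosome 2:74697727-74700208, was the member that ran the other way. It had 2, 2 and 3 reads in epidermis WT and 7, 11, 6 and 8 in tongue WT, or 0.225, 0.103 and 0.154 against 0.671, 0.890, 0.448 and 0.646 CPM. In KO there were 6, 1, 3 and 5 reads in epidermis and 10, 4, 13 and 13 in tongue, where 0.299 CPM in tongue KO 2 overlapped the epidermis range of 0.0830 to 0.315. These counts were too low for the filter. Without it, edgeR gave a log2 change of -2.10 in WT (SE 0.54, adjusted p = 0.0116) and -1.78 in KO (SE 0.59, adjusted p = 0.0233), and DESeq2 gave -2.16 (adjusted p = 0.0270) and -1.90 (adjusted p = 0.0220). Hoxd4 was low in both tissues, with a ratio of 1.4 in WT (95% interval 0.7 to 2.84). Of its exon bases 52.3% also belong to other annotated genes, so its few reads are uncertain.

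**Figure D3:**
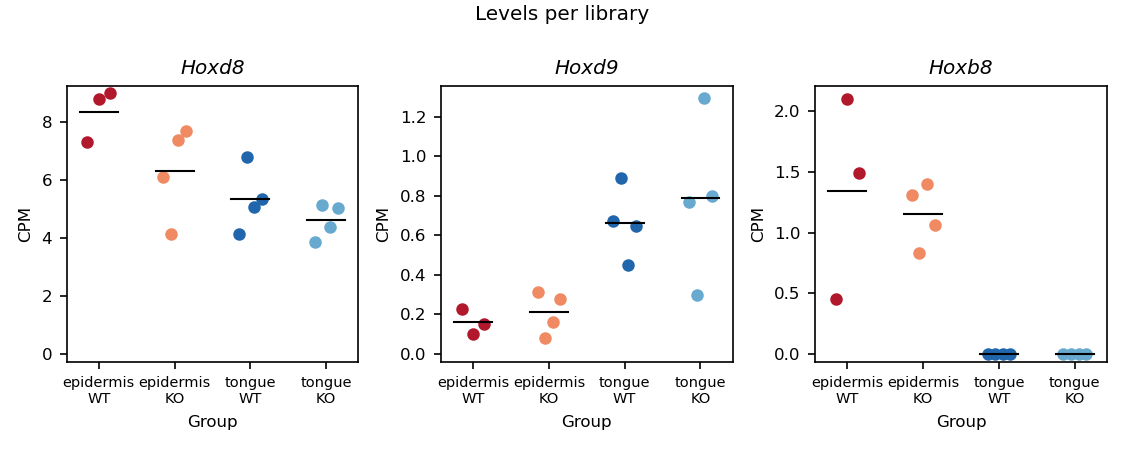
CPM of Hoxd8, Hoxd9 and Hoxb8 in each library (points) with the group mean (line), in epidermis WT (n = 3) and in epidermis KO, tongue WT and tongue KO (n = 4 each). Hoxd8 lay at 3.84 or more in every library, Hoxd9 was higher in tongue than in epidermis WT, and Hoxb8 had no read in tongue.

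Cell types that could carry these transcripts differed widely between the tissues. The 6 fibroblast markers summed to 132 to 430 CPM in epidermis and 4890 to 6180 in tongue, 6 skeletal muscle markers to 77.1 to 649 and 21100 to 44600, and 4 endothelial markers to 2.05 to 8.05 and 265 to 406. Melanocyte markers summed to 46.9 to 140 CPM in epidermis and at most 1.1 in tongue, where Tyr was at 0. Macrophage markers overlapped, at 32.3 to 46.8 and 32 to 58.5 CPM. The part of these cells in the Hox levels was not tested.

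In tongue most Hoxa5 reads and all Hoxb5 reads came from the A32x libraries, tongue WT 1 and tongue KO 1. Hoxa5, which is needed for normal lung and airway development, had 27 reads in each of these and 0 to 3 in each of the other 6, or 2.59 and 2.07 CPM against at most 0.224. Hoxb5 had 3 and 12 reads against none, and Hoxb3 10 and 16 against 0 to 4. Hoxa2 had 10 and 15 reads against 0 to 7, and Hoxa3 13 and 15 against 0 to 6. The summed level of the 8 members of paralogs 2 to 5 in clusters A and B was 7.57 and 8.53 CPM in these libraries and 0.697 to 2.02 in the others, and 7 of the 8 were higher in both than in any other tongue library, where 9.48% of all genes tested were. Hoxb2 was the exception. This set of 8 was drawn after the values were seen, so the count of 7 is no separate support. The 9.48% covers genes that passed the filter on low counts, which Hoxa4, Hoxb2, Hoxb4 and Hoxb5 did not. Hoxa4 was among the 7 with 5 and 8 reads against 1 to 5.

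With genotype as a covariate, edgeR called 318 of 16543 genes (1.92%) between the A32x and the other tongue libraries, in a comparison added after these values were seen. Of 6 members tested 1 was called, Hoxa5 (log2 change 4.09, SE 0.49, edgeR adjusted p = 0.00362), where 1.39% of all genes were called higher. Hoxb3 (2.37, SE 0.54, edgeR adjusted p = 0.0526), Hoxa3 (2.29, SE 0.53, adjusted p = 0.0554) and Hoxa2 (2.17, SE 0.61, adjusted p = 0.106) were not. Hoxd8 had a log2 change of -0.40 (SE 0.20, edgeR adjusted p = 0.380) and Hoxd9 one of 0.02 (SE 0.52, adjusted p = 0.992). Without tongue WT 1 or without tongue KO 1, which leaves 1 A32x library, assumed to vary like the others, Hoxa5 was not called (edgeR adjusted p = 0.0678 and 0.175).

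The same libraries had higher levels of genes listed here as lung markers. A list of 14 lung epithelium and alveolar genes, written after these data were seen, summed to 715 and 1070 CPM in tongue WT 1 and KO 1 and to 110 to 251 in the other tongue libraries. In the epidermis libraries it summed to 250 to 482 CPM, so the total is not particular to lung. Of the 14 genes 13 were higher in both than in any other tongue library, Hopx being the exception, where 9.48% of all genes tested were. Called higher were 10, where 1.39% of all genes tested were. As the list was written after the data were seen, these counts are no separate support. Of the 14, Nkx2-1 was at 0 in 1 tongue library, KO 3, and the others had reads in all 8. Ciliated airway markers summed to 12.7 and 13.8 CPM in tongue WT 1 and KO 1 against 3.36 to 7.12 in the others, with 2 of 4 tested called higher (1.39% of all genes were). Endothelial markers summed to 357 and 406 against 265 to 315, with none of 4 called. Skeletal muscle markers were lower, at 21100 and 24100 against 28600 to 44600, with 1 of 6 called lower and 5 at an unadjusted p under 0.05. Of all 16543 genes tested, 318 were called in either direction and 2546 had an unadjusted p under 0.05. The other marker sums overlapped between these and the other tongue libraries. The part of any of these tissues in the Hox levels of tongue was not tested. Without the A32x libraries of both tissues the 20 members called in WT and the 18 called in KO were all called again, with Hoxb8 added in WT. Apart from Hoxd8 in WT these members passed the filter through their epidermis reads, so being called again is no separate support.

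**Figure D4:**
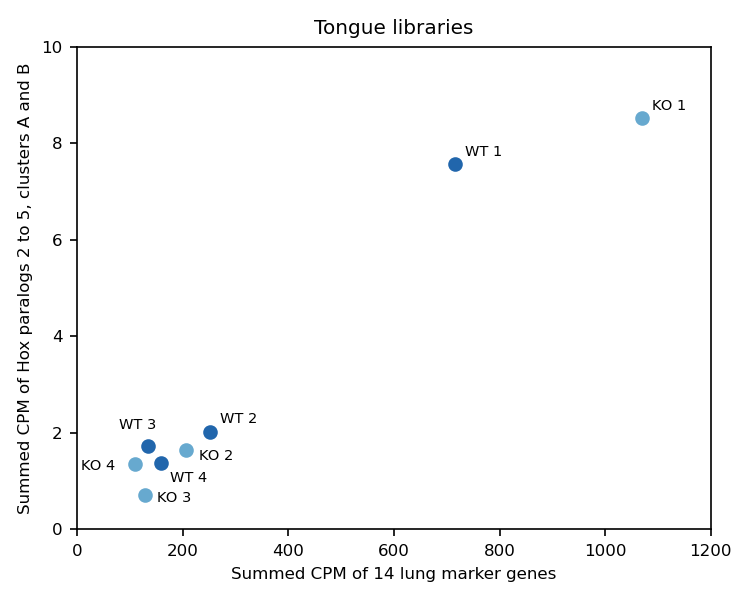
Summed CPM of the 8 Hox members of paralogs 2 to 5 in clusters A and B (vertical) against summed CPM of 14 lung marker genes (horizontal), 1 point for each of the 8 tongue libraries, WT in dark and KO in light blue. WT 1 and KO 1 lie at 7.57 and 8.53 CPM of Hox genes, and the other 6 between 0.697 and 2.02.

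The knockout was then compared with wild type within each tissue. In epidermis 22 members were tested and none passed with edgeR, where 0% of 16073 genes were called, and 187 (1.16%) had an unadjusted p under 0.05, none of them a member. DESeq2 called none either. The members' median log2 change was -0.27 against 0.00129 for all genes, with 16 of 22 below 0. The median was -0.11 without epidermis KO 2, -0.16 without epidermis WT 2 and -0.36 without epidermis KO 1. Hoxc5 was the only tested member whose groups did not overlap, at 3.83, 3.49 and 3.70 CPM in WT and 2.68, 3.32, 1.89 and 2.02 in KO (log2 change -0.60, SE 0.31, 95% interval -1.29 to 0.10, edgeR adjusted p = 0.9998), and 0.939% of all genes tested lay apart in that direction.

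In tongue only Hoxd8 could be tested between the genotypes. Its log2 change was -0.21 (SE 0.19, interval -0.63 to 0.21, edgeR adjusted p = 0.939), where 0.0127% of 15741 genes were called. The difference of the knockout effect between the tissues was tested for 23 members and called for none, with 0% of 17935 genes called, 299 (1.67%) at an unadjusted p under 0.05 and 1 gene, no member, called by DESeq2. The interval of this difference was narrowest for Hoxd8, given above, followed by Hoxb2 (-1.18 to 1.62), Hoxd9 (-1.27 to 1.83) and Hoxa4 (-1.71 to 1.42). It was widest for Hoxb8, Hoxc6 and Hoxc8, which had no read in any tongue library.

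Within epidermis KO a single library had low values for the posterior members. In epidermis KO 2, from animal A343, the 7 members of paralogs 7 to 9 with a median of at least 1 CPM were at 13.5% to 61.2% of the median of the other 6 epidermis libraries, and 6 of them were lower than in any other. Hoxa9 was at 0.581 CPM against 2.59 to 6.26 in the others, Hoxb9 at 0.498 against 1.62 to 4.04, Hoxb7 at 1.08 against 2.41 to 4.31 and Hoxa7 at 6.97 against 11.5 to 18.6. The 14 members below paralog 7 at that level were at 60.1% to 134% with a median of 88.3%, and 2 of them, Hoxb4 and Hoxc4, were lowest in that library. This library and the split at paralog 7 were chosen after the values were seen, so no test is given. The share of all genes that were lowest in this library was not determined, so these counts have no background to be read against. Its depth was 12.1 reads per CPM, and its Hoxa9 and Hoxb9 values rest on 7 and 6 reads. Of the epidermis libraries it had the highest marker sums of skeletal muscle, 649 CPM against 77.1 to 236, of endothelium, 8.05 against 2.05 to 3.8, of tongue epithelium, 1270 against 305 to 1030, and of keratinocytes, 58100 against 31400 to 55300. The sums of adipocyte markers (21.9 against 5.08 to 13.6 CPM), neuron markers (6.97 against 1.02 to 5.45) and lung markers (482 against 250 to 424) were highest in it as well. Their part in the low values was not tested, nor was that of the body site of the skin, which the labels do not give.

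**Figure D5:**
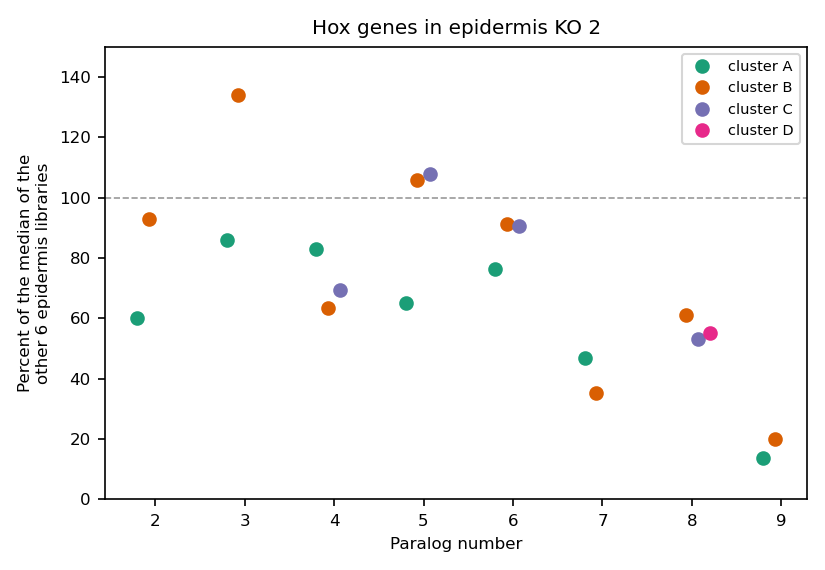
Level of members in epidermis KO 2 as a percent of its median in the other 6 epidermis libraries (vertical) by paralog number (horizontal) and cluster (colour), for 20 members with a median of at least 1 CPM. Members below paralog 7 lie at 60.1% or more and members of paralogs 7 to 9 at 61.2% or less.

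Some transcripts of TALE cofactors, which bind DNA with Hox proteins, were lower in epidermis. Of 9 TALE cofactors 8 were tested in the WT tissues, 5 were lower in epidermis (31.6% of all genes were) and none higher, with a median log2 change of -0.93 against 0.03 for all genes. The count was 3 lower without any 1 of the WT libraries other than epidermis WT 1. Meis1 (-1.75, SE 0.16, edgeR adjusted p = 1.15e-05) and Meis3 (-1.36, SE 0.30) were among those lower, Meis1 being at 13.4 mean CPM in epidermis WT and 45.7 in tongue WT. Pknox2 (-2.0, SE 0.74, edgeR adjusted p = 0.0408) had 8.21 CPM in epidermis WT 1 against 0.564 and 1.28 in the other epidermis WT libraries and 11.1 to 13.8 in tongue WT. Without epidermis WT 1 its log2 change was -3.74 (edgeR adjusted p = 3.21e-08), and without any 1 of the other 6 libraries it was not called (adjusted p = 0.0679 to 0.112). In KO, where 31.1% of all genes were lower, the count was again 5 lower and none higher.

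Genes of retinoic acid signalling, which switches on 3′ Hox genes in the embryo, were split. Of 15 tested in WT 6 were higher in epidermis and 5 lower, near the shares of all genes, 32% higher and 31.6% lower. The receptor gene Rxrg was lower (-7.27, SE 0.40, edgeR adjusted p = 5.34e-07), as were the binding protein gene Crabp1 (-4.70, SE 0.45), the retinoic acid synthesis gene Aldh1a3 (-3.83, SE 0.35) and the receptor gene Rarb (-3.29, SE 0.24). Rxrg was at 0.164 mean CPM in epidermis WT and 21.4 in tongue WT, and its log2 change without epidermis WT 1 was -7.96. It passed the filter on low counts through its tongue reads, so it had to differ. Within epidermis 12 genes of this list passed the filter, against 15 here, so tongue reads carried others past it as well. Whether the other named genes are among these is not given here. In KO 7 were higher and 6 lower, where 32.7% and 31.1% of all genes were.

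Of 17 Polycomb genes 9 were higher in epidermis WT and 1 lower, where 32% of all genes were higher and 31.6% lower, with a median log2 change of 0.57 against 0.03 for all genes. Without epidermis WT 1 the count was 10 higher and 3 lower, and without any 1 of tongue WT 1, 3 or 4 it was 7 higher and 1 lower. The chromodomain genes Cbx7 (3.02, SE 0.29, edgeR adjusted p = 1.89e-05) and Cbx2 (2.76, SE 0.18) and the ring finger gene Pcgf2 (1.57, SE 0.24) were among those higher, and Cbx7 was at 23.8 mean CPM in epidermis WT and 2.97 in tongue WT. Of 10 genes of the opposing Trithorax group and H3K27 demethylases, 4 were higher, near the 32% of all genes, and 1 lower, led by the methyltransferase gene Kmt2b (2.20, SE 0.27, edgeR adjusted p = 9.20e-05) and the demethylase gene Kdm6b (1.45, SE 0.26). In KO the counts were 9 higher and 2 lower, and 6 higher and 1 lower, where 32.7% of all genes were higher and 31.1% lower.

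Among direct regulators of Hox genes 4 were tested in WT, of which 3 were higher in epidermis, where 32% of all genes were, among them the hindbrain regulator Egr2 (2.44, SE 0.41, edgeR adjusted p = 6.98e-04) and the geminin gene Gmnn (1.02, SE 0.19), and Gdf11, which patterns the posterior axis, was lower (-3.17, SE 0.39). The counts were the same in KO. All of these lists were written with earlier results of these data known, and all hold genes with other uses in both tissues.

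Noncoding RNAs from within the clusters were few. Of 8 that were counted, 3 passed the filter in WT, and Hoxaas2 and Hoxd3os1 did so through their epidermis reads, so they had to differ. Hoxb3os passed within tongue as well and was higher in epidermis WT (2.54, SE 0.26), where 32% of all genes were. Hoxaas2 was at 1.0 mean CPM in epidermis WT and 0.0815 in tongue WT, and Hoxd3os1 at 2.46 and 0.328. Hoxb3os was at 5.33 ± 0.807 CPM in epidermis WT (SD, n = 3) and 0.923 ± 0.109 in tongue WT (n = 4), and at 6.56 ± 1.18 and 0.801 ± 0.171 in KO. It lies antisense over 52.9% of the exon bases of Hoxb3 and 27.3% of those of Hoxb2, and the libraries were not stated to mark strand, so reads of these genes cannot be told apart there. Its 8 tongue values, 0.672 to 1.05 CPM, included none that stood out in the A32x libraries. Hoxaas3 overlaps 20.4% of the exon bases of Hoxa7.

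The genes that flank the clusters showed no common direction. Of 12 tested in WT 4 were higher in epidermis and 5 lower, near the 32% and 31.6% of all genes, with a median log2 change of -0.01 against 0.03 for all genes. The count lower was 2 without tongue WT 3 and 3 without epidermis WT 2, tongue WT 1 or tongue WT 4. Beside cluster A, the adaptor gene Skap2 was higher (2.08, SE 0.20, edgeR adjusted p = 1.72e-05) while Snx10 (-2.21, SE 0.37) and Hibadh (-1.32, SE 0.15) were lower, and beside cluster B Snx11 was higher (1.81, SE 0.18). Beside cluster D, where the genes were named after their values were seen, both Mtx2 (-0.62, SE 0.21, edgeR adjusted p = 0.0277) and Lnpk (-0.53, SE 0.18, adjusted p = 0.0302) were lower in epidermis WT, and in KO Lnpk was again lower (adjusted p = 0.00558) and Mtx2 was at -0.28 (adjusted p = 0.270). In WT Lnpk was not called without any 1 of epidermis WT 2 or 3 or tongue WT 3 or 4 (edgeR adjusted p = 0.0662 to 0.0780), and Mtx2 not without tongue WT 1 or 3 (adjusted p = 0.0542 and 0.0603).

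Homeobox genes known for patterning the face and jaws were split between the tissues. Of 13 tested in WT 7 were lower in epidermis, where 31.6% of all genes were, and 4 higher, near the 32% of all genes. Barx1 was lower, with no read in any epidermis library, as were Pitx1 (-7.15, SE 0.55, edgeR adjusted p = 4.66e-06, or -7.74 without epidermis WT 1 and -6.51 without epidermis WT 2) and Alx4 (-5.19, SE 0.29), Alx4 being at 0.349 mean CPM in epidermis WT and 14 in tongue WT. Barx1 and Alx4, which are in the count of 7, passed the filter on low counts through their tongue reads, so they had to differ. Within epidermis 8 genes of this list passed the filter, against 13 here, so tongue reads carried others past it as well. Pitx1 may be among these, and neither its change nor the count of 7 is free of the filter. The 4 higher in epidermis, likewise named after their values were seen, were Dlx5 (2.95, SE 0.41), Dlx3 (2.31, SE 0.19), Barx2 and Dlx4, and Dlx4 was not called without any 1 of epidermis WT 2 or 3 or tongue WT 2 or 4 (edgeR adjusted p = 0.0650 to 0.0815). None of the genes in these lists was called between knockout and wild type in either tissue, or in the difference of the effects between tissues.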

How the data were processed

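RNA was read with a SMARTer V4 and TruSeq protocol that the labels do not state to mark strand. STAR 2.5.2a, DESeq2, edgeR, limma and the builds GRCm38.p3 and mm10 are named in the submitters' processing notes, while the program that counted reads is not given in the sources used here. Raw counts per gene were deposited by the authors, beside a normalized signal whose values equal the count over 1 constant per library for 99.99% of entries. Counts of 23420 mouse genes were tested, and 2 transgene entries (at most 0.00439% of reads) were left out. Tests used edgeR 4.0.16 (quasi-likelihood, robust, TMM, filterByExpr minimum 10, Benjamini-Hochberg threshold 0.05) on the groups compared, in R 4.3.3, with DESeq2 1.42.0 as an alternative. On simulated counts the WT tissue comparison recovered 24.8% of 2-fold and 97% of 4-fold changes. The comparison of genotypes in tongue recovered 83.3% and 99%, and the other comparisons were not simulated. CPM used TMM over all 15 libraries, and CPM per kb the summed exon length in GENCODE M21 (GRCm38). Counted reads per library ran from 10117819 to 17819195, and 1 CPM stood for 8.89 to 19.5 reads. Intervals and floors cover counting error only. Genes named were the members and, in each list, those with the largest called changes, some of which, and 1 member, are not reported here by name. Members and lists were chosen with earlier results of these data known. The numbers pair KO tissues because equal numbers carry the same A-number (same-number correlations 0.0634, 0.227, -0.188 and 0.163). The labels do not say that A-numbers are animals, and if they are not, p-values measure only the spread between libraries, which may be technical. The alternatives were other size factors, DESeq2, no filter, blocks, subsets of animals and leaving out each library.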

Additional observations from a re-analysis of the deposited data

Results flagged for a closer look

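Among 47 sets of 4 values in the groups of 4 libraries, 8 had a library set apart from the other 3 beyond Dixon's 95% critical value, where chance gives about 1 in 20. All 8 were summed levels in tongue WT 1 or tongue KO 1. In tongue WT 1 the summed level of paralogs 4 and 5 of clusters A to C was 4.02 CPM, that of cluster A 5.56 and that of clusters A to C together 8.05. In tongue KO 1 the same sums were 4.61, 5.45 and 9.14 CPM, that of cluster B was 3.53 and that of all 27 members 14.1. These sums share members, so the 8 are not separate findings. Lung marker levels in the same libraries are given above, and their part was not tested.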

How the results depend on the processing

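No called result changed direction under the alternatives run. Of the 20 members called in WT, 18 or 19 were called again without any 1 library, and of the 18 in KO, 17 or 18 were. Apart from Hoxd8 in WT they passed the filter through their epidermis reads, so calls repeated under the alternatives are no separate support. With the replicate number as a block, 19 were called in WT (Hoxd8 lost, 0.69, edgeR adjusted p = 0.0609) and 18 in KO. In WT the numbers do not pair the libraries: no pair with the same number shares an A-number, and their correlations were 0.093, 0.11 and 0.135, although each epidermis library correlated best with the tongue library of its own number. With the A-number as a block, which joins 2 WT pairs, all 20 were called. Hoxa5 in WT was lost without a filter (edgeR adjusted p = 0.0745) and without any 1 of epidermis WT 1 or 2 or tongue WT 2, 3 or 4 (0.0655 to 0.0887). Hoxb5 in KO was lost with DESeq2 (adjusted p = 0.0572), without a filter (0.056) and without tongue KO 2, 3 or 4 (0.0664 to 0.0699). Between genotypes in epidermis the 0 genes called became 604 in the A38x libraries alone and 1 when the range of A-numbers entered as a block, and in tongue the 2 became 4 with DESeq2 and 15 in the A38x libraries alone. The difference of the effects gave 1 gene with DESeq2, 19 in the A38x libraries alone and 0 to 1 without any 1 library. No member was among any of these. For the A32x libraries the 318 genes became 490 with DESeq2 and 1 (without tongue KO 1) to 891 (without tongue KO 3) when a library was left out, and the 1 member called became 4 without a filter, 3 without the genotype term and 0 to 3 without any 1 library. With 5 reads as the minimum, 2 members were detected in tongue WT. The causes were not tested. Depth limits the members near 0, for which a count of 0 over a tongue group allows up to 0.0618 CPM in WT and 0.0569 in KO.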

Other observations

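Epidermis WT 1 also comes from the A32x range, as does epidermis KO 1. Among the 7 epidermis libraries epidermis WT 1 had the highest levels of Hoxa3 (6.3 CPM against 1.94 to 3.72), Hoxb5 (3.26 against 1.08 to 1.94), Hoxa4 (4.28 against 1.46 to 3.3) and Hoxc5 (3.83 against 1.89 to 3.7), and the lowest of Hoxa2, Hoxb2, Hoxb6, Hoxb8 and Hoxc6. The share of all genes highest or lowest in this library was not determined, so these members have no background to be read against. Some gaps were small, as for Hoxb6 (2.025 CPM against 2.047 in epidermis KO 3). Epidermis WT 1 was also the shallowest epidermis library, at 8.89 reads per CPM. The 6 ciliated airway markers, a list written after the data were seen, summed to 60 CPM in it and to 1.03 to 13.4 in the other 6, while its lung marker sum, 250 CPM, was the lowest of the 7. Their part in the Hox levels was not tested.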
